A study of Mus musculus with 10 samples.

Results

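The small leucine-rich proteoglycans are secreted proteins whose core is a row of leucine-rich repeats. The 9 genes examined here were Aspn, Bgn, Dcn, Fmod, Lum, Prelp, Omd, Ogn and Podn. They were taken by symbol from the 43346 genes of the deposited count table, with earlier results of these data known. All 9 were listed in the table, each in 1 row.

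Core proteins of this family bind to the surface of collagen fibrils and control how thick the fibrils grow and how they are spaced. Many carry chains of chondroitin, dermatan or keratan sulfate, and several also bind growth factors such as TGF-beta or act on cell surface receptors. They are typical products of fibroblasts, bone, cartilage, tendon and cornea, and much of the connective tissue of the head arises from the cranial neural crest.

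RNA was sequenced from mouse O9-1 cells, a tetraploid line from the cranial neural crest. The 10 libraries came from 4 biologically independent samples of wildtype cells (WT/1 to WT/4), 3 Kat5 knockout (ko) clones and 3 Ep400 ko clones. Each knockout was made with Cas9 and a guide for 1 site, and each ko library is a different clone. Kat5 is the histone acetyltransferase and Ep400 the chromatin remodeling ATPase of the Tip60/Ep400 complex, and the comparisons ask how the loss of either subunit alters gene expression in these cells. All groups were grown in the same preconditioned medium on Matrigel, a matrix of basement membrane proteins, with no further treatment of the cultures. The ko clones had before been transfected with plasmids, sorted for EGFP and expanded from single cells. The paper describes no such steps for the wildtype samples. Effects of these steps and of the knockout cannot be told apart. The edits in all Kat5 ko clones and in the first Ep400 ko clone shifted the reading frame in every allele, whereas the remaining Ep400 ko clones also carried in-frame deletions. The same wildtype libraries served both comparisons with wildtype.

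Values are normalized counts, which are read counts scaled by TMM to a common library size of 37648617 reads. A limit of 100 normalized counts used below corresponds to 2.66 CPM, the count scaled to library size. Between 30968945 and 48301792 reads per library were counted on genes. Kat5 counts ranged from 1837 to 2163 in wildtype cells and from 618 to 872 in the Kat5 ko clones. Ep400 counts ranged from 5899 to 6216 in wildtype cells and from 2059 to 2311 in the Ep400 ko clones. Of 17 neural crest markers, 12 exceeded a mean of 100 normalized counts in wildtype cells, and Sox10 and Foxd3 had 0 reads in all libraries. Clone Kat5/1 stood apart by its summed smooth muscle markers, with 28541 normalized counts against 716 to 3608 in the other libraries. Clone Ep400/3 had the largest share of mitochondrial reads, 3.24%, and the other libraries had between 0.893% and 2.43%, the latter in WT/3.

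The family was dominated by Bgn in every library. Compared per length of exon, as reads per kilobase of exon scaled to library size (RPKM), the mean wildtype level was 225 for Bgn, 8.54 for Dcn, 7.72 for Ogn, 3.68 for Omd, 3.16 for Aspn and 0.930 for Podn. Prelp at 0.191, Lum at 0.125 and Fmod at 0.0074 RPKM were barely expressed. The wildtype ranges of neighbors in this order overlapped, except that Bgn lay above all others, Podn above Prelp and Lum above Fmod. Bgn made up between 90.6% and 98.5% of the family's normalized counts in 9 libraries, and 73.8% in clone Ep400/3.

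In the fits across all genes, a gene was called if it differed by 1 or more on the log2 scale in either direction, with an adjusted p of at most 0.05, if 1 or more of the groups had a mean of over 100 normalized counts. No member was called in either knockout. Of the 9 members, 7 had enough reads to be tested, and Lum and Fmod did not. By the quasi-likelihood test of edgeR, with p-values adjusted after Benjamini and Hochberg, 0 of 7 tested members were called in the Kat5 ko clones, where 0.387% of the 13434 tested genes were called. For the Ep400 ko clones the count was also 0 of 7, against 6.48% of the 13836 tested genes. At an unadjusted p of at most 0.05 with the other limits kept, 3 of 7 were past the limits in the Kat5 ko clones (Aspn, Dcn and Podn, all lower), against 4.71% of all tested genes. Among the Ep400 ko clones 2 of 7 were (Omd and Prelp, both higher), against 9.27%. Among other tools, limma called none, and DESeq2 with adjusted p called Aspn and Dcn lower in the Kat5 ko clones and Prelp higher in the Ep400 ko clones. The dependence on the tool applies to each statement on these genes below.

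All 3 clones lay below all wildtype libraries for 2 of the 7 tested members in the Kat5 ko clones (Aspn and Dcn), as for 10.2% of all tested genes, and above them for 1 (Bgn), as for 9.66%. In the Ep400 ko clones 0 of 7 lay below, against 14.1% of all tested genes, and 0 of 7 lay above, against 16.1%. The median log2-fold change of the 7 tested members was −1.29 in the Kat5 ko clones and 1.35 in the Ep400 ko clones, and that of all tested genes 3.2e-05 and 0.043. Without clone Ep400/3 the median in the Ep400 ko clones was −0.71, of the opposite sign, and in the Kat5 ko clones it was −2.39 without clone Kat5/1 and −0.68 without clone Kat5/3. RNA of a whole culture was measured, so fewer cells that express a gene and less RNA per cell cannot be told apart.

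**Figure D1:**
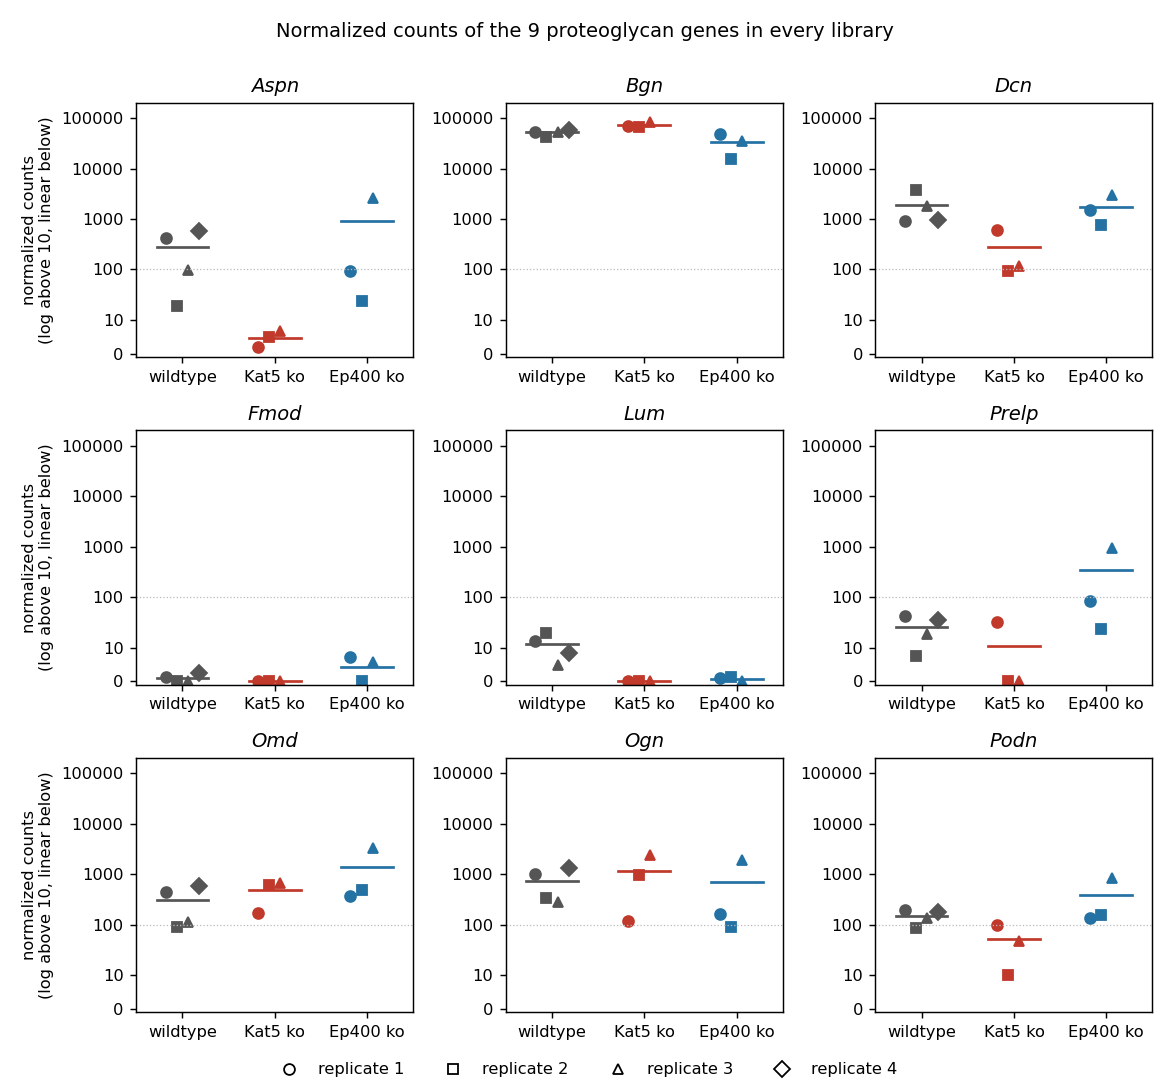
Normalized counts (vertical axis, logarithmic above 10 and linear below) of the 9 members in each library, by group, with symbols for the replicate or clone number, lines at the group means and a dotted line at 100 normalized counts. Aspn and Dcn lie below the wildtype range in all 3 Kat5 ko clones, Bgn lies above it, and clone Ep400/3 is the highest library for 4 members.

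Asporin, biglycan and decorin form the class of the family that is closest in sequence, and all are known to bind collagen or TGF-beta. Asporin, encoded by Aspn, carries a stretch of aspartic acid and lacks the glycosaminoglycan attachment of the other members of its class. The gene (ENSMUSG00000021388) lies on the plus strand at chr13:49544443-49567565 in GRCm38. It had 418, 18.5, 97.2 and 585 normalized counts in WT/1 to WT/4, then 2.07, 4.96 and 6.64 in clones Kat5/1 to Kat5/3, and 92.7, 23.5 and 2642 in clones Ep400/1 to Ep400/3. All Kat5 ko clones were thus below the lowest wildtype library, which itself was 31.7-fold below the highest. Among the Ep400 ko clones, only clone Ep400/3 lay above the wildtype range, and the other clones were within it.

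The Kat5 ko clones had a mean of 4.56 ± 2.31 normalized counts of Aspn (SD, n = 3) and wildtype cells 279.8 ± 267 (SD, n = 4). The log2-fold change was −5.92 (SE 1.25) with an adjusted p of 0.0705 in edgeR's quasi-likelihood test, so Aspn narrowly missed the threshold. It passed with DESeq2, without a filter on low counts, without WT/2 and without clone Kat5/1. Against wildtype, the Ep400 ko clones had a log2-fold change of 1.72 (SE 1.43, adjusted p = 0.434 from the same test). This value rested on clone Ep400/3, and without it the log2-fold change was −2.27.

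Biglycan, a ligand of collagen, BMPs and Toll-like receptors, is encoded by Bgn (ENSMUSG00000031375) on the plus strand at chrX:73483602-73495933. Bgn had 53180, 41872, 53336 and 58691 normalized counts in WT/1 to WT/4, then 69659, 67228 and 85450 in the Kat5 ko clones, and 48493, 15124 and 35740 in the Ep400 ko clones. It varied least of all members in wildtype cells, where the highest library had 1.40 times the counts of the lowest. All Kat5 ko clones were above the wildtype range, whereas Ep400/2 and Ep400/3 were below it and Ep400/1 within it.

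For the Kat5 ko clones the log2-fold change of Bgn was 0.49 (SE 0.16, adjusted p = 0.137 in edgeR's quasi-likelihood test). For the Ep400 ko clones it was −0.64 (SE 0.35, adjusted p = 0.234). Both were below the limit of 1 on the absolute log2-fold change. The median log2 difference of 386 expressed X-linked genes from the wildtype mean was −0.32 in clone Ep400/1, −0.062 in Ep400/2 and −0.097 in Ep400/3. On the scale of plain ratios, not log2, Bgn was at 0.937, 0.292 and 0.690 times its wildtype mean in these clones. With an offset for the chromosome, the log2-fold change of Bgn was −0.44 in the Ep400 ko clones.

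Decorin, which decorates collagen fibrils and binds TGF-beta and several receptor tyrosine kinases, is encoded by Dcn (ENSMUSG00000019929) on the plus strand at chr10:97479609-97518143. Dcn had 933, 3798, 1814 and 964 normalized counts in WT/1 to WT/4, then 611, 91.8 and 116 in the Kat5 ko clones, and 1492, 761 and 3048 in the Ep400 ko clones. The Kat5 ko clones did not overlap the wildtype libraries, and clone Kat5/1 was nearest to them. Of the Ep400 ko clones, clone Ep400/2 lay below the wildtype range and the others lay inside it.

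Dcn had a log2-fold change of −2.80 (SE 0.81, adjusted p = 0.108 in edgeR's quasi-likelihood test) in the Kat5 ko clones, from 1877 ± 1344 (SD, n = 4) to 273 ± 293 normalized counts (SD, n = 3). Without clone Kat5/1 the value was −4.20 and Dcn was called. For the Ep400 ko clones the log2-fold change was −0.087 (SE 0.58, adjusted p = 0.934), with no stable direction when single libraries were left out.

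Fibromodulin, lumican, PRELP and osteomodulin are members of the class that carries keratan sulfate or is related to it by sequence. Fmod (ENSMUSG00000041559, plus strand, chr1:134037254-134048277), whose product guides collagen fibril assembly in tendon, had 4 reads in all wildtype libraries together, 0 in the Kat5 ko clones and 14 in the Ep400 ko clones. The latter were 8 reads in clone Ep400/1 and 6 in clone Ep400/3. At this depth Fmod was at or near the limit of detection in all groups.

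Lumican, needed for the regular collagen lattice of the cornea, is encoded by Lum (ENSMUSG00000036446) on the plus strand at chr10:97565128-97572703, next to Dcn. Lum had 11, 18, 5 and 10 reads in WT/1 to WT/4, then 0, 0 and 0 in the Kat5 ko clones, and 1, 1 and 0 in the Ep400 ko clones. Every ko clone was below every wildtype library, but the counts were too few for the gene to be tested. Against a floor of 3 reads over the group, Lum was at least 11-fold lower in the Kat5 ko clones. For the Ep400 ko clones the ratio of wildtype to knockout was 16.9 (exact 95% interval 4.41 to 144, for counting error only). The spread between clones is not part of either value.

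PRELP, which links collagen to heparan sulfate of basement membranes, is encoded by Prelp (ENSMUSG00000041577) on the minus strand at chr1:133910304-133921414. Prelp had 42.1, 7.61, 18.7 and 35.7 normalized counts in WT/1 to WT/4, then 32.2, 0 and 0 in the Kat5 ko clones, and 84.7, 23.5 and 939 in the Ep400 ko clones. Clones Kat5/2 and Kat5/3 had no read, and clone Kat5/1 was within the wildtype range. Clones Ep400/1 and Ep400/3 lay above that range, and clone Ep400/2 within it. Only in clone Ep400/3 did Prelp exceed 100 normalized counts.

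For the Ep400 ko clones Prelp had a log2-fold change of 3.74 (SE 1.13, adjusted p = 0.0595 in edgeR's quasi-likelihood test). It passed the threshold with DESeq2, without a filter on low counts, without clone Ep400/1 and without clone Ep400/2. Without clone Ep400/3 the log2-fold change was 1.05. For the Kat5 ko clones the value was −1.29 (SE 1.31, adjusted p = 0.594).

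Osteomodulin, an acidic protein of mineralized matrix that binds cells through an integrin, is encoded by Omd (ENSMUSG00000048368) on the plus strand at chr13:49582462-49592822. Omd had 450, 88.1, 112 and 597 normalized counts in WT/1 to WT/4, then 170, 621 and 658 in the Kat5 ko clones, and 373, 482 and 3304 in the Ep400 ko clones. Clone Ep400/3 was 5.53-fold above the highest wildtype library, and the other Ep400 ko clones were inside the wildtype range. Clones Kat5/2 and Kat5/3 lay slightly above that range and clone Kat5/1 within it. The log2-fold change was 0.59 in the Kat5 ko clones (SE 0.72, adjusted p = 0.662 in edgeR's quasi-likelihood test). It was 2.15 in the Ep400 ko clones (SE 0.90, adjusted p = 0.137), and 0.45 without clone Ep400/3.

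Osteoglycin, a member of a further class that is found in bone and many other connective tissues, is encoded by Ogn (ENSMUSG00000021390) on the plus strand at chr13:49608046-49624501. Ogn had 1030, 338, 288 and 1326 normalized counts in WT/1 to WT/4, then 118, 961 and 2403 in the Kat5 ko clones, and 162, 88.2 and 1889 in the Ep400 ko clones. In both knockouts the clones lay on both sides of the wildtype range. The log2-fold change was 0.60 in the Kat5 ko clones (SE 0.86, adjusted p = 0.717 in edgeR's quasi-likelihood test) and −0.063 in the Ep400 ko clones (SE 0.99, adjusted p = 0.972). The first was −0.49 without clone Kat5/3 and the second −2.58 without clone Ep400/3.

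Podocan, which binds collagen and is known to restrain the growth of smooth muscle cells, is encoded by Podn (ENSMUSG00000028600) on the minus strand at chr4:108014791-108096445. Podn had 197, 87.0, 138 and 175 normalized counts in WT/1 to WT/4, then 98.5, 9.92 and 47.3 in the Kat5 ko clones, and 136, 159 and 849 in the Ep400 ko clones. Clones Kat5/2 and Kat5/3 were below the wildtype range, clone Ep400/3 was above it and the other ko clones were within it. The log2-fold change in the Kat5 ko clones was −1.54 (SE 0.67, adjusted p = 0.223 in edgeR's quasi-likelihood test). It was −2.39, and Podn was called, without clone Kat5/1. The Ep400 ko clones had a log2-fold change of 1.35 (SE 0.63, adjusted p = 0.179), and −0.026 without clone Ep400/3.

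**Figure D2:**
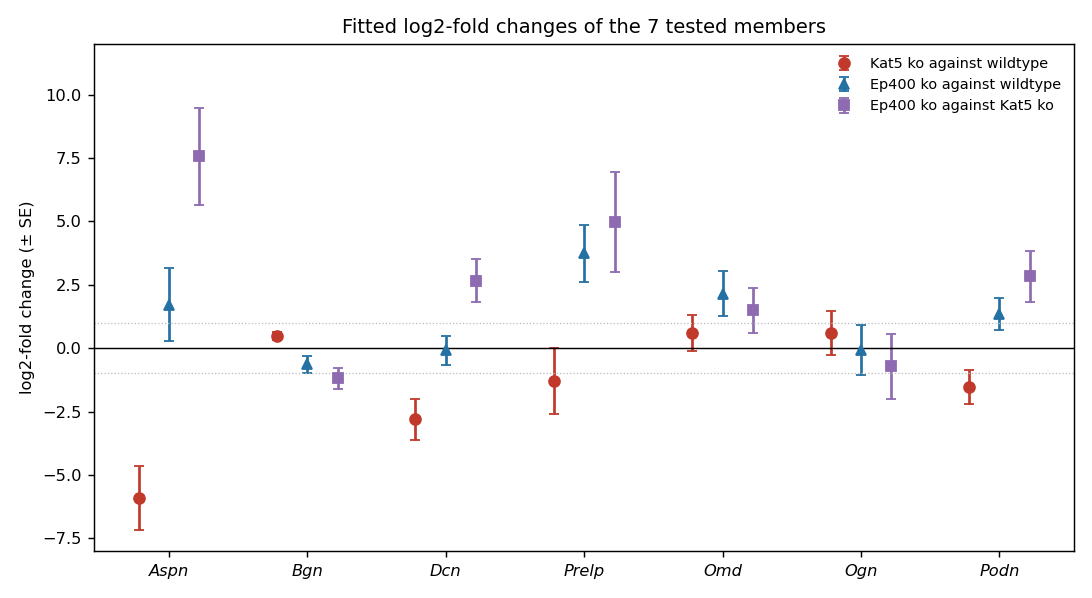
Fitted log2-fold change (vertical axis) of the 7 tested members in the comparisons of Kat5 ko with wildtype, Ep400 ko with wildtype and Ep400 ko with Kat5 ko, with bars of 1 standard error and dotted lines at −1 and 1. Aspn has the lowest value in the Kat5 ko clones, −5.92, and Prelp the highest of the Ep400 ko clones against wildtype, 3.74.

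Both knockouts were also compared directly, and 0 of the 7 tested members were called, against 5.51% of the 13587 tested genes. At an unadjusted p of at most 0.05, 5 of 7 were past the limits, against 14.6% of all tested genes. Aspn, Dcn, Prelp and Podn had higher and Bgn lower counts in the Ep400 ko clones. The Ep400 ko clones lay above all Kat5 ko clones for 3 of 7 (Aspn, Dcn and Podn), as for 20.5% of all tested genes, and below them for 1 of 7 (Bgn), as for 18.0%. The log2-fold change of Ep400 ko against Kat5 ko was 7.58 for Aspn (SE 1.92, adjusted p = 0.0541 in edgeR's quasi-likelihood test) and 2.66 for Dcn (SE 0.84, adjusted p = 0.0805). It was −1.18 for Bgn (SE 0.41, adjusted p = 0.1). When all 10 libraries shared 1 fit, 4 members were called (Aspn, Bgn, Dcn and Podn), while the number over all genes went from 748 to 1775. DESeq2 called 3 (Bgn, Dcn and Podn) and 1868 genes in all, and gave no p for Aspn. Without clone Ep400/3 the log2-fold change of Aspn was 3.62.

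Single clones had a large part in these values. Clone Ep400/3 was the highest of all 10 libraries for 4 members (Aspn, Omd, Prelp and Podn). Without Bgn, the family summed to 12676 normalized counts in this clone and to between 1032 and 4357 in the other libraries. Clone Kat5/1 was nearer to wildtype cells than the other Kat5 ko clones for Dcn, Prelp and Podn, and had the lowest counts of them for Aspn, Omd and Ogn. The wildtype libraries differed as well, and WT/1 and WT/4 exceeded WT/2 and WT/3 for Aspn, Omd, Ogn, Podn and Prelp, whereas WT/2 was the highest of them for Dcn and Lum.

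**Figure D3:**
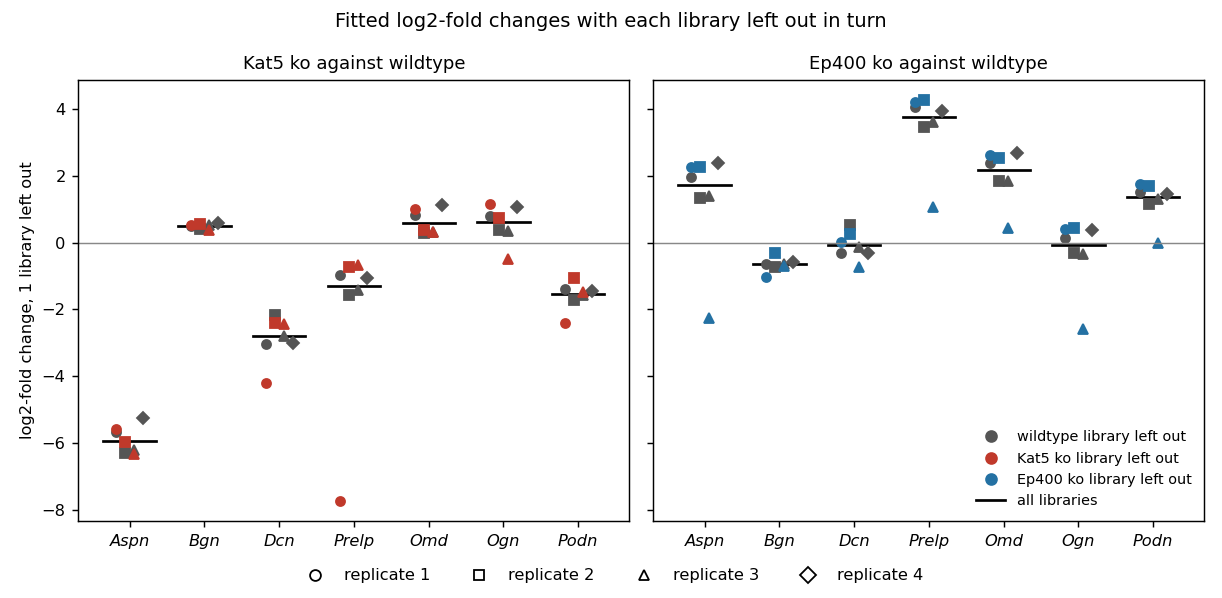
Fitted log2-fold change (vertical axis) of the 7 tested members for Kat5 ko (left) and Ep400 ko (right) against wildtype with 1 library left out at a time. Colors give the group and symbols the number of the library left out, and black lines the value with all libraries. Without clone Ep400/3 the value of Aspn goes from 1.72 to −2.27. The lowest point of Prelp on the left compares with 2 clones without reads and is no measure of size.

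Aspn, Omd and Ogn follow each other on chromosome 13, behind the related gene Ecm2, with gaps of 11.7 kb, 14.9 kb and 15.2 kb. Because these neighbors differed between libraries, the sequences before their starts are shown, from 250 bases before to 50 bases after the RefSeq start site in GRCm38.p6, on the plus strand. RefSeq windows were matched for 7 of the 9 members. The windows are chr13:49544193-49544492 for Aspn, chr13:49582212-49582511 for Omd and chr13:49607765-49608064 for Ogn. Capitals mark matches to TATAAA, to the TEAD motif GGAATG or to the AP-1 motif TGANTCA on either strand.
Aspn: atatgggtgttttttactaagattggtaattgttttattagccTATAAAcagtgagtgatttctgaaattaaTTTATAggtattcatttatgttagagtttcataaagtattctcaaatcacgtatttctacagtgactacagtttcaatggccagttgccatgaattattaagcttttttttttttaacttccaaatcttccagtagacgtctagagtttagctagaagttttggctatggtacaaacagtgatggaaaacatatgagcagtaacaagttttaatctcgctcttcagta
Omd: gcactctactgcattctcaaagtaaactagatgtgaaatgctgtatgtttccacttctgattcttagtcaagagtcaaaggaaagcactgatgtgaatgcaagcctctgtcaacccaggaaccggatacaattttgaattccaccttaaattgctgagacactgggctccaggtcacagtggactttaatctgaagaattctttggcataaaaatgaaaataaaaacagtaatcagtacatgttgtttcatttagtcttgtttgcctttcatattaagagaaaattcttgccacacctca
Ogn: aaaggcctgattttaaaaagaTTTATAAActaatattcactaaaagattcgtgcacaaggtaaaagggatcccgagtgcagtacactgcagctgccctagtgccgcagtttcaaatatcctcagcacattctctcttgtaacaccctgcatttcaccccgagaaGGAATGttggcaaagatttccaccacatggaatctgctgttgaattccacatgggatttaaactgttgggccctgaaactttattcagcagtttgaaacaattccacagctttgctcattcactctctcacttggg
Aspn and Ogn each held 2 matches to TATAAA, which overlap on opposite strands in Ogn, and Omd held none. A match to TATAAA was present in 13.6% of all 32851 windows of this length. GGAATG was found only in the Ogn window, and in 14.7% of all windows, and TGANTCA in none of the 3 and in 7.81% of all. The E-box CANNTG, not marked, had 2 matches in Aspn, 4 in Ogn and 0 in Omd, and was present in 72.3% of all windows. All 3 windows were poor in G and C, with 31.0% for Aspn, 37.7% for Omd and 42.3% for Ogn, against a median of 52.7%. These matches are letters in a sequence, and binding of a factor was not measured here.

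In the Kat5 ko clones the neighbors on chromosome 13 did not differ from wildtype cells as a block. Omd and Ogn had fewer counts in clone Kat5/1 than in the other Kat5 ko clones, whereas Aspn was low in all of them. In clone Ep400/3 all 3 members were above the wildtype range, and Ecm2 had 74.0 normalized counts against 0.883 to 16.6 in the other libraries. The flanking genes Ippk and Nol8 had 531 and 972 normalized counts in this clone, against wildtype means of 609.5 and 1261. In all 3 Kat5 ko clones both lay above all wildtype libraries, as for 9.66% of all tested genes, while Aspn was low in each. The log2-fold change was 0.63 for Ippk (adjusted p = 0.0942 in edgeR's quasi-likelihood test) and 1.01 for Nol8 (adjusted p = 0.0786, called by DESeq2). The 436 expressed genes of chromosome 13 were shifted by a median of 0.090 to 0.13 on the log2 scale in the Ep400 ko clones and by −0.23 to 0.14 in the Kat5 ko clones. Cenpp, a centromere protein gene on the opposite strand, spans all 3 members and shares exon sequence with Aspn. The library kit keeps the strand, but the strand setting of the counting is not given in the sources used here. Cenpp had between 354 and 691 normalized counts in the libraries, and its log2-fold change was −0.22 in the Kat5 ko clones (adjusted p = 0.706) and −0.33 in the Ep400 ko clones (adjusted p = 0.328).

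**Figure D4:**
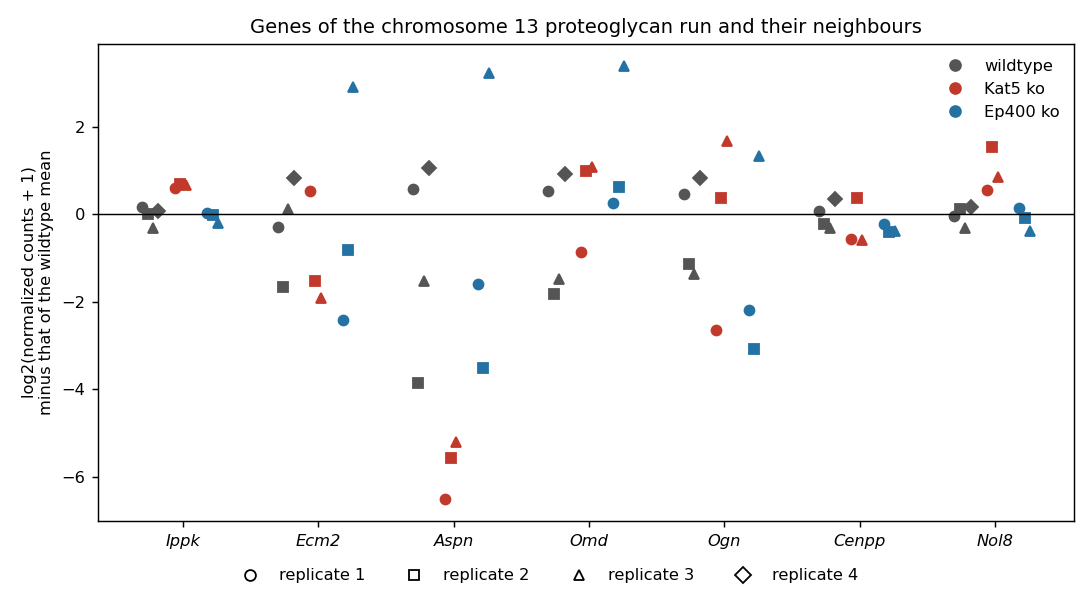
Difference of log2(normalized counts + 1) from that of the wildtype mean (vertical axis) for genes of the chromosome 13 run and its flanks, for each library by group (colors) and number (symbols). Clone Ep400/3 is above the wildtype libraries for Ecm2, Aspn, Omd and Ogn and not for Ippk, Cenpp and Nol8.

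Around Podn on chromosome 4, the lipid transfer gene Scp2 overlaps it on the same strand without a shared exon. Scp2 had 1867 normalized counts on average in wildtype cells. It had 1173 in the Kat5 ko clones, all below wildtype, as for 10.2% of all tested genes. In the Ep400 ko clones it had 2957, all above wildtype, as for 16.1%. Its log2-fold change was −0.70 in the former (adjusted p = 0.136 in edgeR's quasi-likelihood test) and 0.66 in the latter (adjusted p = 0.0248, below the limit of 1 in size), and it was called in the direct comparison, at 1.31. Echdc2, on the far side of Scp2, fell in the Ep400 ko clones (log2-fold change −1.03, adjusted p = 0.0296) and was at −1.21 in the Kat5 ko clones (adjusted p = 0.0768), where DESeq2 called it. Slc1a7 and Atp2b3, beside Podn and Bgn, had at most 4.35 and 1.96 normalized counts in any library. The nearest coding genes on the other sides of the members, Haus7 of Bgn, Btg1 of Dcn, and Btg2 and Atp2b4 of Fmod and Prelp, were not called in any comparison by edgeR's quasi-likelihood test or limma. At an unadjusted p, and with DESeq2, 1 of them, Btg1, was past the limits, in the direct comparison.

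On chromosome 10, Dcn and Lum stand before the related genes Kera and Epyc. Kera had at most 1.87 normalized counts in any library and Epyc had 0 in all. Prelp lies beside Optc, the gene for opticin, which reached 20.7 normalized counts in clone Kat5/1. Of the 9 other family members in the table, 3 were tested, and 0 were called in any comparison by edgeR's quasi-likelihood test. These were Podnl1, Tsku and Chadl. At an unadjusted p, and with DESeq2, Chadl passed the other limits in the direct comparison of the knockouts, where it was higher in the Ep400 ko clones. Podnl1, the gene for podocan-like protein, had a log2-fold change of −0.70 in the Kat5 ko clones (adjusted p = 0.194) and −0.94 in the Ep400 ko clones (adjusted p = 0.0936).

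Genes that act with the family were counted in lists chosen with earlier results of these data known. In the Kat5 ko clones 0 genes were called in any list, which held 17 tested core proteins of other proteoglycans, 25 enzymes of glycosaminoglycan chains, 26 partners in collagen fibrils and 17 ligands and receptors bound by the family. At an unadjusted p, 3, 2, 5 and 2 of them passed the other limits, in the same order, against 4.71% of all tested genes. DESeq2 called 2, 1, 5 and 2 of them and 540 genes in all, and limma 0 of them and 74 in all. The medians of these lists lay between −0.15 and 0.0073 on the log2 scale.

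In the Ep400 ko clones, 4 of the 17 other core proteins rose and 1 fell, against 6.48% of all tested genes called in either direction. Acan, the gene for aggrecan of cartilage, fell from 687 ± 324 normalized counts (SD, n = 4) to a mean of 2.75 (adjusted p = 0.00318 in edgeR's quasi-likelihood test). Cell surface proteoglycans were among those that rose, with a log2-fold change of 1.64 for the glypican Gpc6 (adjusted p = 0.0173) and 1.38 for the syndecan Sdc2 (adjusted p = 0.024).

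Of the 25 chain enzymes 3 rose and 1 fell, against the same 6.48%. Chst1, a sulfotransferase of keratan sulfate, had a log2-fold change of 2.89 (adjusted p = 0.0143 in edgeR's quasi-likelihood test), Chst3, a sulfotransferase of chondroitin, one of −2.54 (adjusted p = 0.00835), and B3galt6, which builds the linker of the chains, one of 1.15 (adjusted p = 0.0388).

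Of the 26 fibril partners 2 rose and 3 fell, again against 6.48% of all tested genes. The log2-fold changes of the tenascins were −3.66 for Tnc (adjusted p = 0.00969 in edgeR's quasi-likelihood test) and 3.24 for Tnxb (adjusted p = 0.0151), and that of Loxl2, a collagen crosslinking enzyme, −2.32 (adjusted p = 0.039). Of the 15 tested ligands and receptors 0 rose and 2 fell, namely Wisp1 (log2-fold change −2.97, adjusted p = 0.00677) and the receptor Met (−1.32, adjusted p = 0.0269). The list medians were 0.12, 0.097, −0.088 and 0.15, in the order of the lists, and that of all tested genes 0.043.

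In the direct comparison, where 5.51% of all tested genes were called, 3 of 16 other core proteins were higher in the Ep400 ko than in the Kat5 ko clones and 1 was lower, again Acan, with Gpc1 (log2-fold change 1.26) and Sdc2 (1.32) among the higher ones. Of the chain enzymes 2 were higher, Chst2 (3.08) and Csgalnact2 (1.07), and 0 lower. Of the fibril partners Tnxb was higher (2.65) and 2 were lower, Tnc (−5.21) and Col5a2 (−2.09). Of the ligands and receptors Bmp4 (3.17) and Tlr4 (1.34) were higher and Met (−1.36) lower. Each of these passed with an adjusted p between 0.0347 and 0.05 in edgeR's quasi-likelihood test. Of the genes named here, DESeq2 did not call Acan, and limma did not call Acan, Sdc2, Chst2, Tnc or Bmp4.

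Markers of cell types that express the family were summed per library, with no test of the sums. The 8 osteoblast markers summed to 128490 to 200090 normalized counts in wildtype cells, 93312 to 120350 in the Kat5 ko clones and 236050 to 317700 in the Ep400 ko clones, most of them from Spp1, whereas Ibsp had 0 reads in all libraries. Of the 5 tested osteoblast markers, 0 were called in the Kat5 ko clones by edgeR's quasi-likelihood test, DESeq2 or limma. With the fold and mean limits kept, 0 passed at an unadjusted p. All Kat5 ko clones nonetheless lay below wildtype for Spp1 (log2-fold change −0.76, adjusted p = 0.0831 in edgeR's quasi-likelihood test). They also did for Sp7 (−4.23, adjusted p = 0.0761), whose wildtype mean was 14.6 normalized counts. Phex, Dmp1 and Runx2 overlapped wildtype, and 10.2% of all tested genes lay below it. In the Ep400 ko clones 1 of the 5 tested osteoblast markers rose (Dmp1), against 6.48% of all tested genes called in either direction. The 12 fibroblast markers summed to 306850 to 384250, 284670 to 323390 and 399800 to 602560, in the same order, so that the wildtype and Kat5 ko sums overlapped. Most of these counts came from Vim and S100a4, with wildtype means of 261570 and 67674, and not from markers more particular to fibroblasts. In the Kat5 ko clones 0 of the 8 tested fibroblast markers were called by any of these tools. At an unadjusted p with the fold and mean limits kept, 0 passed as well. Only Vim of the tested ones lay below all wildtype libraries in all Kat5 ko clones. Its log2-fold change was −0.33 (adjusted p = 0.212 in edgeR's quasi-likelihood test). In the Ep400 ko clones 2 of 10 rose and 0 fell, against the same 6.48% of all tested genes. Pdgfra rose by 4.77-fold (adjusted p = 0.000966 in edgeR's quasi-likelihood test) and Pdpn by 2.53-fold (adjusted p = 0.0234). DESeq2 also called Fap higher and Fbln2 lower. Clone Ep400/3, the highest library for 4 members, had the middle sum of the Ep400 ko clones for both lists.

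The 6 tendon markers summed to 1279 to 2240 in wildtype cells, 1823 to 2023 in the Kat5 ko clones and 2172 to 2741 in the Ep400 ko clones, and Tnmd had 0 reads in all libraries. Within this list Egr1, which is also an immediate early gene, rose 6.04-fold in the Kat5 ko clones (adjusted p = 0.00924 in edgeR's quasi-likelihood test) and 4.51-fold in the Ep400 ko clones (adjusted p = 0.0375). This was 1 of the 3 tested tendon markers in each knockout, against 0.387% and 6.48% of all tested genes called. DESeq2 called Egr1 in both knockouts, and limma in the Kat5 ko clones only. Scx, the transcription factor of tendon cells, was 2.95-fold lower in the Kat5 ko clones (adjusted p = 0.0928 in edgeR's quasi-likelihood test) and was called by DESeq2 only. All Kat5 ko clones lay below wildtype for Scx, as for 10.2% of all tested genes. The 8 chondrocyte markers summed to 128 to 677, 112 to 154 and 278 to 422, in the order of wildtype, Kat5 ko and Ep400 ko libraries. In the direct comparison 1 of the 2 tested chondrocyte markers was called, Sox5, higher in the Ep400 ko clones, against 5.51% of all tested genes. DESeq2 and limma also called Sox5 there. Against wildtype, Sox5 had a log2-fold change of −1.71 in the Kat5 ko clones (adjusted p = 0.119 in edgeR's quasi-likelihood test). These clones overlapped wildtype, and only DESeq2 called Sox5 lower in them. For the 10 glia and neuron markers the sums were 177 to 270, 115 to 460.5 and 464 to 936, so that the Ep400 ko clones all lay above wildtype. Of the 2 tested markers of this list 1, Tubb3, rose in the Ep400 ko clones, against 6.48% of all tested genes called. DESeq2 also called Tubb3, and limma did not. The 9 blood, endothelial and epithelial markers in the table summed to 246 to 337, 125 to 212 and 111 to 319.9. The part of these differences in the values of the family was not tested.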

How the data were processed

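The deposited counts are whole reads per gene that the authors made from paired poly-A reads. The submitters' processing notes name bcl2fastq 2.20, STAR 2.7.3, DESeq2 1.36.0, R 4.2.1 and the build mm10, without roles. The counting program, its annotation and its strand setting are not given in the sources used here. The authors' normalized tables were not used. Members and lists were chosen with earlier results of these data known.

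For each comparison, edgeR 4.0.16 in R 4.3.3 served for the filter (filterByExpr), the TMM factors and the quasi-likelihood test, with Benjamini-Hochberg adjustment over all tested genes. The procedure was tested on data simulated with a common spread for all genes and with changes in well-expressed genes only. Members with a larger spread or few reads were not covered by this test. Alternatives were DESeq2 1.42.0, limma 3.58.1, other normalizations and filters, a chromosome offset, 1 fit of all libraries, a replicate block and each library left out. Counts at an unadjusted p with libraries left out were added after values had been seen. Normalized counts and RPKM came from TMM over all 10 libraries. Each SE of a log2-fold change was derived from the quasi-likelihood test, as the absolute log2-fold change over the square root of its F statistic. Depth was 30968945 to 48301792 reads per library, and intervals cover counting error only.

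All members were named. Of each list, up to 3 called genes with the largest absolute log2-fold change were named, and of the neighborhood, the overlapping and the nearest coding genes. Ccer1 beside Epyc, and Gm15851, Gm23354 and Mir6397, which overlap members, had at most 0.936 normalized counts in any library. Genes with a pattern like that of a member were to be named for called members, which gave none. Single marker genes, Optc and Podnl1 were named after their values were seen. Coordinates are from GENCODE M21 (GRCm38). Between libraries of a group, chi-square per gene was 28.1 to 258, so none agreed within sampling noise. Same-numbered libraries had correlations of residuals between −0.0957 and 0.223 and were not taken as pairs. Replicates are separate cultures or clones.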

Additional observations from a re-analysis of the deposited data

Results flagged for a closer look

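Bgn was above the wildtype mean in 3 of 3 Kat5 ko clones and below it in 3 of 3 Ep400 ko clones. Clone Ep400/1 was within the wildtype range. The log2-fold change of Ep400 ko against Kat5 ko was −1.18 with an adjusted p of 0.1 in edgeR's quasi-likelihood test, so this difference did not pass the threshold. With an offset for the chromosome it was −0.94 (adjusted p = 0.187 in the same test), below the limit of 1 in size. Both comparisons with wildtype share the wildtype libraries.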

How the results depend on the processing

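Over 328 refits of the members' log2-fold changes, 294 kept direction and side of the threshold, 21 kept direction and newly passed, and 13 changed direction. The number of members called, 0 in each comparison, was 2 (Kat5), 1 (Ep400) and 3 (direct) with DESeq2, 1, 1 and 2 without a filter, and 3, 2 and 5 at an unadjusted p. In 1 fit of all libraries it was 4 in the direct comparison and 0 in the others. With 1 library left out it was 0 to 3 for Kat5, with 3 without clone Kat5/1 and 1 without WT/2. It was 0 to 1 for Ep400, with 1 (Prelp) without clone Ep400/1 or Ep400/2, and 0 to 1 directly, with 1 (Dcn) without clone Kat5/1. At an unadjusted p these counts were 2 to 3, 1 to 4 and 2 to 5. For Ep400 the count was 1, of Ogn alone, without clone Ep400/3 and 4 without clone Ep400/1, and directly it was 3 without clone Ep400/3. With the replicate number as a replicate block it was 0 in all comparisons.

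With 1 library left out, the log2-fold change of Ogn in the Kat5 ko clones was −0.49 (without clone Kat5/3) to 1.14. In the Ep400 ko clones, Aspn was at −2.27 to 2.37 and Podn at −0.026 to 1.75, below 0 without clone Ep400/3 only. Ogn was at −2.58 to 0.43, above 0 without WT/1, WT/4, clone Ep400/1 or clone Ep400/2, and at 0.033 with library size alone. Dcn was at −0.74 to 0.51, above 0 without WT/2, clone Ep400/1 or clone Ep400/2. Directly, Ogn was at −3.22 to 0.38, above 0 without clone Kat5/3 only, and Omd at −0.19 to 1.94, below 0 without clone Ep400/3 only. The causes were not tested.

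Over all genes, 52 (Kat5), 896 (Ep400) and 748 (direct) were called. The numbers were 540, 1194 and 1868 with DESeq2, and 0, 160 and 200 with the replicate block. Without a filter 166 were called for Kat5 and 1349 directly, and in 1 fit of all libraries 22 and 1775. With 1 library left out the numbers were 1 to 902, 545 to 1021 and 4 to 1750. With 3 clones a group, a log2-fold change of −2.80 with a SE of 0.81 (Dcn) did not pass. Fmod and Lum were limited by depth.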
